A study of Mus musculus with 26 samples.

Results

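In P1 mouse cochlear supporting cells kept in culture, 747 of 232378 merged H3K27ac regions (0.321%) carried a peak in all 4 libraries from DAPT-treated cells and in neither library from control cells. H3K27ac is acetylation of lysine 27 on histone H3, a mark found at active promoters and enhancers. Peaks of the 6 H3K27ac libraries were merged wherever they overlapped by at least 1 bp on chromosomes 1 to 19 and X. A merged region was kept when both libraries of each DAPT group had a peak in it and both control libraries had none, so the regions were selected on their H3K27ac peak calls, and their H3K27ac values below are a description without a test.

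Supporting cells surround the hair cells of the cochlea, and signalling through the Notch receptor keeps them from becoming hair cells. DAPT inhibits gamma-secretase, the protease that releases the active part of Notch, and in the neonatal cochlea some supporting cells then switch on Atoh1, the helix-loop-helix factor that starts hair cell development. Histone acetyltransferases add the H3K27ac mark and deacetylases remove it. Rbpj, the DNA-binding partner of Notch, recruits acetyltransferases together with active Notch and corepressors without it.

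All organs came from postnatal day 1 (P1) mice and were cultured in medium that held EGF and FGF, with DAPT or its solvent DMSO. At 48 h the sorted cells all carried TdTomato recombined by Lfng-CreER, so the population is limited to cells in which Lfng had been active. Permissive cells came from DAPT cultures and also carried Atoh1-GFP, nonpermissive cells came from DAPT cultures and were sorted on TdTomato alone, and control cells came from DMSO cultures. H3K27ac (CUT&RUN) and open chromatin (ATAC) were measured in 2 libraries per group, and RNA in 2 control, 3 nonpermissive and 3 permissive libraries. At 24 h RNA was measured in Lfng-GFP-sorted cells of 3 DAPT and 3 DMSO cultures. The labels do not say whether replicates came from separate animals, so the p-values reflect sample-to-sample spread that could be technical.

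Total RNA counts per library ranged from 2165340 to 4896371 at 48 h and from 10666000 to 13158859 at 24 h. Among the defining markers, Atoh1 followed the sort and Hes5 the DAPT treatment. Atoh1, whose reporter was part of the permissive sort, was at 2.28 and 3.55 CPM (normalised counts scaled to library size) in control cells, 30.2 to 67.2 CPM in nonpermissive cells and 635 to 1010 CPM in permissive cells. Hes5, a Notch target, was at 298 and 813 CPM in control cells, 0 to 2.23 CPM in nonpermissive cells and 1.62 to 21.1 CPM in permissive cells. Sox2, a supporting cell marker, overlapped between control (84.7 and 172 CPM) and nonpermissive cells (57.0 to 117 CPM). The hair cell marker Pou4f3 was at 7.29 and 11.4 CPM in control cells at 48 h and at 161 to 179 CPM in DMSO cells at 24 h. The H3K27ac lists held 57698 and 55254 peaks in control, 93854 and 46148 in nonpermissive and 114527 and 72280 in permissive libraries, and their read depth is unknown. The replicates of each DAPT group thus differed more in list length than the control replicates did. Without a single library the rule gave 1604 (control 1), 1946 (control 2), 1070 (nonpermissive 1), 2906 (nonpermissive 2), 920 (permissive 1) or 2017 (permissive 2) regions.

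The sequences of 6 promoters that lay inside member regions show what the acetylated windows hold. Each is the 250 bases before a RefSeq start (build GRCm38.p6, mm10), printed 5′ to 3′ on the gene's strand. Capitals mark the E-box CAGCTG, bound by helix-loop-helix factors, the Rbpj core TGGGAA or its complement TTCCCA, and the AP-1 motif TGANTCA. Gadd45g is the promoter member whose gene rose most in RNA, and Dusp28, Faah, Gps2, Ttll4 and Zfp871 are those among the 12 most strongly acetylated members whose listed upstream window lay inside the member.
Gadd45g (chr13:51846425-51846674, plus strand): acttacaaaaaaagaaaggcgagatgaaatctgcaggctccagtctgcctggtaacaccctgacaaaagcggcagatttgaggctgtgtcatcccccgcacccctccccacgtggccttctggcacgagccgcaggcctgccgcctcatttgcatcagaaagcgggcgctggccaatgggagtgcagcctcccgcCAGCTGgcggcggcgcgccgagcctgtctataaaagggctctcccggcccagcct
Dusp28 (chr1:92906739-92906988, plus strand): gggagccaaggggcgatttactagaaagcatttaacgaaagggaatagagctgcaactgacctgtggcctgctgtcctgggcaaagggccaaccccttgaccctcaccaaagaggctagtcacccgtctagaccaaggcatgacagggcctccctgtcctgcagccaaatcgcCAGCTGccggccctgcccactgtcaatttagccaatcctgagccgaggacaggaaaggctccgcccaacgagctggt
Faah (chr4:116017925-116018174, minus strand): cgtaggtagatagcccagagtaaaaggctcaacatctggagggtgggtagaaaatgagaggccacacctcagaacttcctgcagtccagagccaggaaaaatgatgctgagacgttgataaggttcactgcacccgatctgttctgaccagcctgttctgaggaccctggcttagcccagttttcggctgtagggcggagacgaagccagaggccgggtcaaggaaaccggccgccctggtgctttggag
Gps2 (chr11:69913770-69914019, plus strand): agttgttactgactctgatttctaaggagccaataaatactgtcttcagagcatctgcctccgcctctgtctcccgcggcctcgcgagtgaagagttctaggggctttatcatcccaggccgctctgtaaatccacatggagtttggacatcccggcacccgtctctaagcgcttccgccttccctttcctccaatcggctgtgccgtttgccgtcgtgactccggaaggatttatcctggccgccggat
Ttll4 (chr1:74661452-74661701, plus strand): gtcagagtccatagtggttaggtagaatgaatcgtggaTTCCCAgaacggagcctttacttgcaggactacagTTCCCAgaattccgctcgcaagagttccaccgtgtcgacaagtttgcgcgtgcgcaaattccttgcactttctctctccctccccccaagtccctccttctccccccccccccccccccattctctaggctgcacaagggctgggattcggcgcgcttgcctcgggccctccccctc
Zfp871 (chr17:32788288-32788537, minus strand): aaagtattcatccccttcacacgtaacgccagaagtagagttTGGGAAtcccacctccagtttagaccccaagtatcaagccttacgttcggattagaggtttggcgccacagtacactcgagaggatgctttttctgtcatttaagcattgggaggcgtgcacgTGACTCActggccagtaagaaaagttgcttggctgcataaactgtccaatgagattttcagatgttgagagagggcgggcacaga
The Gadd45g and Dusp28 windows hold 1 E-box each, the Ttll4 window holds 2 Rbpj cores, and the Zfp871 window holds 1 Rbpj core and 1 AP-1 motif. The Faah and Gps2 windows hold none of the 3 motifs.

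Over all 162 upstream windows inside members, searched on both strands, 19 held CAGCTG (11.7%), 33 held TGGGAA (20.4%) and 3 held TGANTCA (1.9%). Among all 24063 windows of the same length the shares were 12.6%, 21.3% and 6.3%. Windows inside regions acetylated in all 6 libraries held these motifs in 9.9%, 19.3% and 3.3%. The E-box and Rbpj shares were thus close to those of promoters in general, and the AP-1 share was lower in both acetylated sets. Base composition moved with this, with a median GC content of 61.6% in members, 60% in the all-library set and 54.8% in all windows. Its part in the AP-1 share was not tested. A motif match is a description, not a binding site.

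The members were peaks of middling strength. In nonpermissive library 1 their deposited fold enrichment ran from 2.66 to 11.8 with a median of 4.73, and in nonpermissive library 2 from 2.61 to 9.8 with a median of 3.92. In permissive library 1 it ran from 2.65 to 32.7 with a median of 5.62, and in permissive library 2 from 2.39 to 9.6 with a median of 3.19. Ranked within its own list, the median member stood at percentile 63.5 and 46.0 in the nonpermissive lists and 78.2 and 46.9 in the permissive lists. The 8310 regions with a peak in all 6 libraries stood at 92.8, 84.6, 91.3 and 81.7. In 683 members (91.4%) at least 1 of the 4 DAPT libraries had a −log10 q under 2, and only 10 members exceeded a fold of 5 in every DAPT library. "Gained" therefore means a peak call present in DAPT and absent in control, and the lists hold no signal for control cells at these places.

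**Figure D1:**
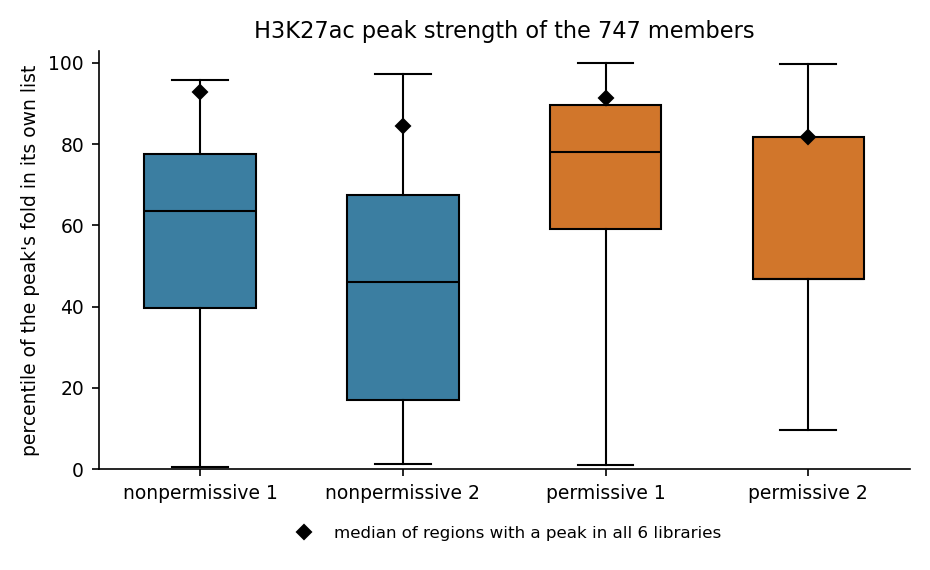
Percentile of each member's strongest H3K27ac peak within its own library's list (vertical axis) in the 4 DAPT libraries; boxes span the quartiles with the median as a line, whiskers reach the lowest and highest member, and diamonds mark the median of the 8310 regions with a peak in all 6 libraries. The member medians sit at 63.5, 46.0, 78.2 and 46.9, below the diamond in every library; in permissive 2 the median line lies on the lower edge of the box because many peaks share 1 fold value.

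Regions that failed the rule by 1 library show how close its border was. Another 860 regions had the 4 DAPT peaks and a peak in control library 1 alone, and 1192 had one in control library 2 alone. Their median control folds were 3.8 and 4.63. Regions with no control peak that lacked only 1 DAPT library numbered 293 without nonpermissive 1, 2150 without nonpermissive 2, 179 without permissive 1 and 1259 without permissive 2. The lists whose absence excluded most regions were nonpermissive 2 and permissive 2, the shorter list of each group.

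Most members lay near H3K27ac of control cells. The median gap from a member to the nearest control peak was 4135 bp, 187 members (25.0%) lay within 1 kb of one and 639 (85.5%) within 20 kb. For the 5955 regions with peaks in both permissive libraries alone the shares were 10.5% and 72.0%, and for the 1882 with peaks in both nonpermissive libraries alone 28.5% and 88.1%. The median member was 1324 bp wide (444 to 11379 bp), against 424 bp over all merged regions. The widest member covered 11379 bp in the body of Lgr5, a Wnt-associated receptor gene of supporting cells, although the nearest start was that of A930009A15Rik at 5943 bp (chr10:115552696-115564074). Its folds were 7.39 and 3.26 in nonpermissive and 24.14 and 4.78 in permissive libraries. The next, of 10896 bp, held the start of Tjap1, a tight junction protein gene (chr17:46278137-46289032). Its folds were 7.98 and 3.92 in nonpermissive and 30.43 and 8.77 in permissive libraries.

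The strongest members, ranked by the lowest of their 4 percentiles, included 7 at promoters. The first held the start of Ttll4, a tubulin glutamylase gene (chr1:74661430-74662793), with folds of 8.87 and 7.18 in nonpermissive and 7.94 and 4.78 in permissive libraries. The next lay in Atn1 (chr6:124745127-124746528, folds 10.94, 6.53, 10.91 and 4.78). The one after lay 228 bp from the start of Pank3, a pantothenate kinase gene of coenzyme A synthesis (chr11:35769723-35770867, folds 8.57, 6.53, 8.6 and 6.38). Faah, which degrades endocannabinoids, Zfp871, Uxs1, Dusp28 and Gps2, a subunit of the NCoR corepressor complex, also had a promoter member among the 12 strongest. The others of these 12 lay near C2cd4a, Mapk8ip1, Rab6b and Ank3. Of the 12, 10 had an ATAC peak in all 6 libraries.

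By position, 210 members (28.1%) lay within 1 kb of a RefSeq start, 370 (49.5%) in a gene body and 121 (16.2%) outside genes. A further 46 (6.2%) lay at a gene end whose strand was not given. The promoter share was 6.3% over all merged regions, 7.7% among permissive-only regions, 5.6% among nonpermissive-only regions and 50.8% among regions acetylated in all 6 libraries. Members thus lay between the fate-specific and the constant regions in this respect. The share was 9.0% for regions acetylated in control and nonpermissive libraries alone, and 17.6% for the 91 acetylated in control and permissive libraries alone. Median widths were 688 bp for nonpermissive-only, 868 bp for permissive-only, 1324 bp for members and 2253 bp for all-library regions. For the control and nonpermissive set the median was 1362 bp. The part of width in the promoter shares was not tested. By chromosome, members made up 0.714% of the regions on X and 0.146% of those on chromosome 18, the highest and lowest shares.

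**Figure D2:**
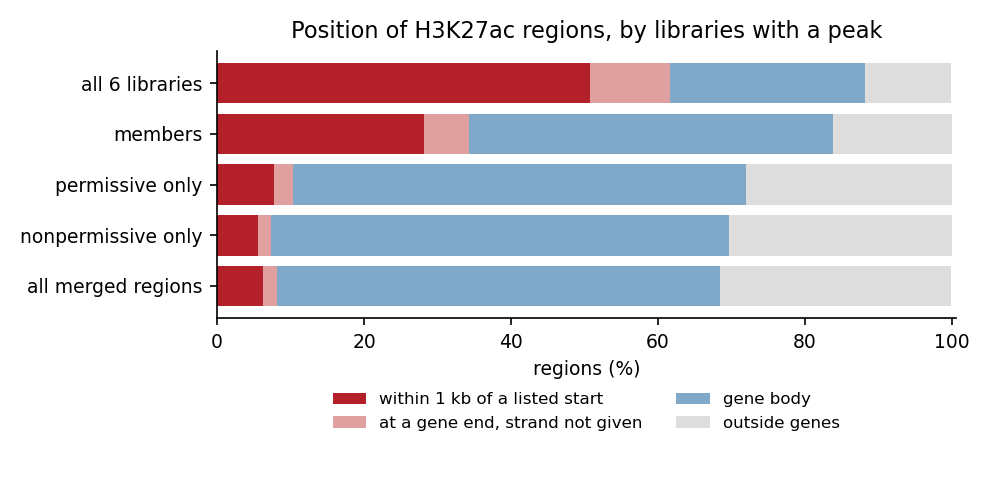
Share of regions (horizontal axis, %) by position relative to RefSeq genes, for the members and for 4 other sets named by the libraries with a peak. Promoters make up 28.1% of members, against 6.3% of all merged regions and 50.8% of regions acetylated in all 6 libraries.

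ATAC, a readout that the rule did not use, showed most members open in control cells too, by the lists as deposited. In control cells 79.7% and 67.1% of members had an ATAC peak, in nonpermissive cells 70.5% and 81.9%, and in permissive cells 67.9% and 88.6%. The 3 groups overlapped, and each pair of replicates differed by more than the group means did. With 2 libraries against 2 an exact permutation test cannot go below p = 0.33. The ATAC lists ran from 86988 intervals in permissive 1 to 170910 in permissive 2, the libraries with the second lowest and the highest share, and the part of list length in these shares was not tested. A peak was present in all 6 ATAC libraries at 377 members (50.5%), in at least 1 control library at 618 (82.7%) and in none at 30 (4.02%). Over all merged regions, 27.98% had a peak in at least 1 control library and 57.59% had none. The shares of all merged regions in control libraries 1 and 2 were 25.3% and 19.3%. With an ATAC −log10 q of at least 5, the shares of members in the control libraries were 60.2% and 43.2%, and 61.45% of members had a peak in at least 1 of them. At this limit the members' shares were 41.2% and 62.9% in nonpermissive and 38.2% and 75.6% in permissive libraries. Of all merged regions, 16.4% then had a peak in at least 1 control library.

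Over all merged regions, 9.08% were open in all 6 libraries, and over permissive-only regions 10.2%. Of regions acetylated in all 6 libraries, 98.29% had a peak in at least 1 control ATAC library. That share was 88.9% for regions acetylated in both control and both nonpermissive libraries alone. Regions differ in width between these sets, with medians of 1324 bp for members, 868 bp for permissive-only and 424 bp for all. The medians were 2253 bp for the all-library set and 1362 bp for the control and nonpermissive set. The part of width in these shares was not tested. Among members, the median width was 1345 bp at those with no ATAC peak and 1249 bp at those open in all 6 libraries. The permissive-only regions were open in 31.0% and 23.2% in control and in 48.7% and 74.4% in permissive libraries. The nonpermissive-only regions were open in 44.6% and 31.8% in control, 32.6% and 43.2% in nonpermissive and 13.0% and 33.3% in permissive libraries. They were thus not more often open in nonpermissive than in control libraries. Promoter members were the most uniformly open, 179 of 210 (85.2%) in all 6 libraries, against 109 of 370 members in gene bodies (29.5%) and 54 of 121 outside genes (44.6%). No promoter member lacked ATAC peaks altogether.

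**Figure D3:**
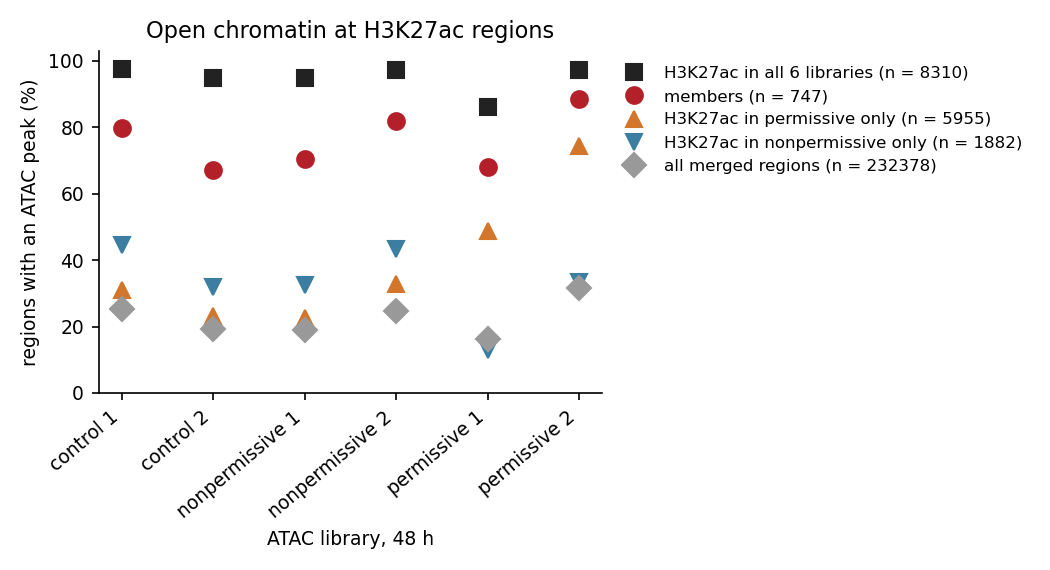
Share of H3K27ac regions that overlapped an ATAC peak (vertical axis, %) in each of the 6 ATAC libraries at 48 h, for the members and 4 other sets. Members sit between 67.1% and 88.6% in every library, with control and DAPT libraries interleaved, while permissive-only regions are highest in the 2 permissive libraries.

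Only 6 members (0.8%) had an ATAC peak in all 4 DAPT libraries and neither control library. The share was 0.17% over all merged regions and 1.09% among permissive-only regions. These 6 lay in the bodies of Boc, Gxylt1, Tgfb2, Ptprg and 2900026A02Rik, and 48669 bp from Gm12022. Boc encodes a Hedgehog co-receptor, and its member (chr16:44526164-44527509) had H3K27ac folds of 5.62 and 4.57 in nonpermissive and 12.9 and 4.78 in permissive libraries. Its ATAC folds were 2.42 and 3.9 in nonpermissive and 2.77 and 3.62 in permissive libraries. The Tgfb2 member (chr1:186702166-186703179) had ATAC folds of 2.34 and 3.15, then 3.38 and 3.21.

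None of the 5 genes linked to these 6 members and tested was called higher in permissive against control cells or at 24 h, where 5.72% and 11.5% of all genes were, so 5 genes are too few to read a share from; Gm12022 was not tested. Tgfb2, a TGF-beta ligand, was at 2440 and 1400 CPM in control, 1740, 1880 and 1380 in nonpermissive and 193, 171 and 154 in permissive cells. It fell by 3.47 on the log2 scale in permissive against control cells (SE 0.43, adjusted p = 0.000212), with no overlap between the groups, and by 0.88 at 24 h (SE 0.11, adjusted p = 0.00066). Ptprg, a receptor tyrosine phosphatase, was at 337 and 253 CPM in control and averaged 100.0 CPM ± 9.9 (SD, n = 3) in permissive cells (log2 fold change −1.55, adjusted p = 0.0202). The Ptprg call was lost without control library 1 (adjusted p = 0.147) or permissive library 2 (0.0656). Boc fell by 0.64 at 24 h (adjusted p = 0.00285), and its change in permissive against control cells did not pass (log2 fold change −1.02, adjusted p = 0.172). Gxylt1 passed in no comparison, with 62.1 and 32.8 CPM in control and 24.1 to 57.8 in permissive cells.

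Of the 30 members without any ATAC peak, 26 were linked to a gene, and 4 of these are described here because their gene is on a supporting cell list, without a test. The first lay 7726 bp from the start of Lfng, a Fringe glycosyltransferase that tunes Notch and marks these cells (chr5:140615067-140616031). Another lay in the body of the Notch ligand gene Jag1 (chr2:137081534-137084329), and others in Eya1 and 23052 bp from Fgfr3, an FGF receptor of pillar and Deiters cells. Their H3K27ac folds were 4.14, 4.57, 3.97 and 3.98 at Lfng and 5.03, 3.92, 4.3 and 3.19 at Jag1, in the order nonpermissive 1 and 2, permissive 1 and 2. Peaks of this size were below the median of regions acetylated in every library, except at Lfng in permissive 2, where that median is also 3.98.

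To ask whether transcripts followed the mark, each member was linked to the nearest gene start within 100 kb. This linked 679 members to 650 genes, and 26 genes had 2 or 3 members. Elmo1, Gadd45g and Lmo7 had 3 each, and Boc, Chd7, Fzd3, Fzd7, Ntf3 and Tgfb2 were among those with 2. In bulk RNA, fewer cells of a type and less RNA per cell cannot be told apart.

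In permissive against control cells, 33 of 564 tested linked genes were higher (5.85%) and 41 lower (7.27%). Over all 13411 genes tested, 5.72% were higher and 7.28% lower, so the shares of the linked genes were close to those of all genes. With no filter on low counts they stood further apart, at 7.6% higher and 8.1% lower against 4.74% and 6.11% of all genes. Linked genes were more highly expressed, with a median of 5.54 log2 CPM against 4.65. Genes linked to regions acetylated in all 6 libraries, at a median of 5.4 log2 CPM, were called in 3.12% and 6.79%. Genes linked to members were thus higher more often than these, and the part of expression level in the shares was not tested. The median log2 fold change was 0.11 for linked genes and 0.06 for all. Genes with a promoter member gave 10 higher and 3 lower of 201 (4.98% and 1.49%), and the other linked genes 23 higher and 38 lower of 363 (6.34% and 10.5%). These counts lean on the 2 control libraries: without control 1 there were 18 higher and 24 lower, and without control 2 there were 13 and 35, while over all genes the shares were 2.8% higher and 4.57% lower, then 2.91% and 4.64%.

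The nonpermissive H3K27ac libraries carried the member peaks and the control libraries did not. In nonpermissive against control cells, none of the 564 linked genes was higher and 1 was lower by edgeR, beside 0.0671% and 0.127% of all genes. At an unadjusted p under 0.05, 14 were higher and 25 lower (2.48% and 4.43%, against 3.6% and 3.75% of all genes). DESeq2 called 2 higher and 5 lower (0.35% and 0.89%, against 0.57% and 0.57%). The 1 gene called was Cox4i2, an isoform of a cytochrome c oxidase subunit, at 109 and 215 CPM in control, 9.77, 1.71 and 10.9 in nonpermissive and 83.8, 77.7 and 52.6 in permissive cells. It fell by 4.38 on the log2 scale (SE 0.63, adjusted p = 0.0127), and the call was lost without control 2 (adjusted p = 0.0821) or nonpermissive 3 (0.0559).

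Permissive and nonpermissive cells, which both carry these peaks, differed at 39 linked genes that were higher (6.91%) and 36 that were lower (6.38%) in permissive cells. Genes linked to regions acetylated in all 6 libraries were called in 4.1% and 6.27%. The background over all genes was 6.78% and 6.35%. The higher calls stood further from it by DESeq2 (11.35% of linked against 8.76% of all genes) and with no filter on low counts (10.74% against 5.52%). The 3 comparisons at 48 h share libraries, so their calls are given side by side and not as separate evidence.

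At 24 h, before the H3K27ac time point and in other libraries, 106 of 574 linked genes were higher with DAPT (18.5%) and 98 lower (17.1%), against 11.5% and 14.2% of all 15174 genes. Linked genes were more highly expressed, with a median of 5.9 log2 CPM against 4.67. Genes linked to regions acetylated in all 6 libraries, at a median of 5.74 log2 CPM, were called in 11.95% and 14.11%. Without single libraries the linked genes gave 73 to 132 higher (12.7% to 22.8%), while all genes gave 7.1% to 15.3%, and 61 to 116 lower (10.59% to 20.03%), while all genes gave 9.48% to 16.52%. The lowest of these, without DAPT library 1, left 10.59% of linked against 9.48% of all genes lower. Of linked genes tested at both times, 27 were higher both at 24 h and in permissive against control cells at 48 h, which is 26.2% of those higher at 24 h and 84.4% of those higher at 48 h. For all genes the shares were 29.6% and 66.1%. The time, the sort and the library kit changed together between 24 h and 48 h and cannot be told apart.

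**Figure D4:**
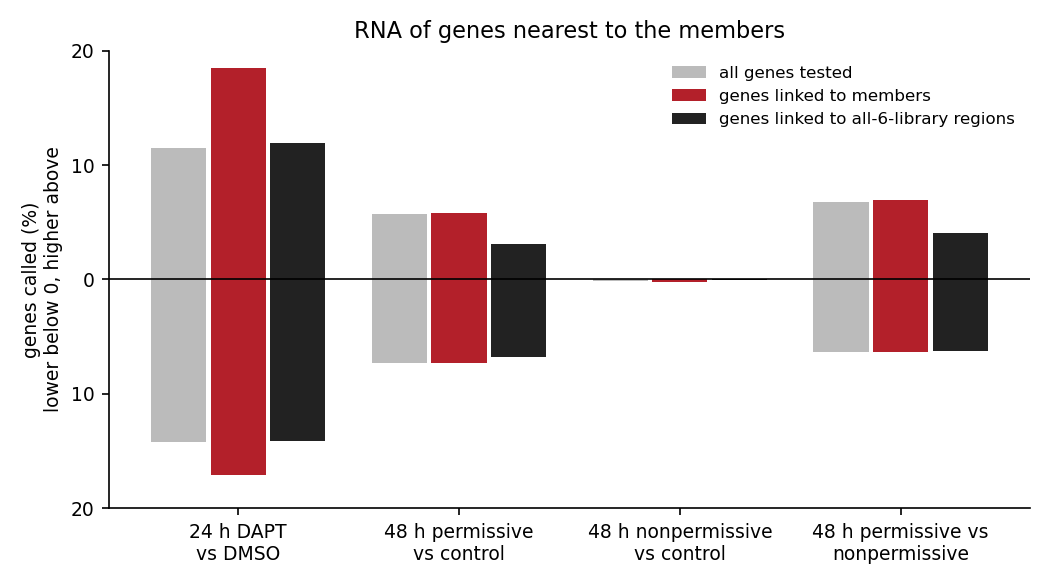
Share of tested genes called at an adjusted p under 0.05 (vertical axis, %; higher above 0, lower below 0) in 4 RNA comparisons, for all genes, genes linked to members and genes linked to regions acetylated in all 6 libraries. At 48 h members and all genes are close (5.85% and 5.72% higher in permissive against control), while genes of the all-library regions are at 3.12%. At 24 h the members' bars are longer than those of all genes (18.5% against 11.5% higher).

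Gadd45g, a stress-response gene of the growth arrest and DNA damage family, was the clearest rise. Its 3 members held its start (chr13:51845044-51846789, folds 6.8, 7.18, 5.62 and 6.38), lay 1211 bp beyond it (chr13:51847886-51850472) and 70676 bp away (chr13:51917351-51921419, folds 7.39, 4.57, 11.58 and 7.17). The start was open in all 6 ATAC libraries. RNA stood at 18.4, 11.2 and 19.4 CPM in DMSO and 494, 437 and 556 CPM in DAPT cells at 24 h. It was higher in all DAPT libraries, by 4.93 on the log2 scale (SE 0.21, adjusted p = 2.22e-06). At 48 h it was at 5.61 and 0.856 CPM in control, 34.3, 32.5 and 112 in nonpermissive and 138, 390 and 69.1 in permissive cells. Permissive cells were higher than control by 5.87 (SE 1.04, adjusted p = 0.00214). The nonpermissive libraries also lay above both controls, but the difference did not pass (log2 fold change 4.14, SE 0.96, adjusted p = 0.171), nor did permissive against nonpermissive (1.73, SE 0.71, adjusted p = 0.134).

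Other linked genes were high in permissive cells at 48 h and low in both other groups. Insc, which orients the spindle and marks the bare zone of the hair cell surface, was at 2.43 and 4.28 CPM in control, 1.6 to 3.63 in nonpermissive and 162, 173 and 172 in permissive cells. Permissive cells exceeded control by 5.66 (SE 0.62, adjusted p = 0.000106) and nonpermissive by 6.12 (SE 0.54, adjusted p = 3.67e-05). Its member (chr7:114764054-114766504) had folds of 11.82 and 4.57 in nonpermissive and 16.87 and 6.38 in permissive libraries. The H3K27ac peak was thus called in nonpermissive cells, whose Insc RNA overlapped control (log2 fold change −0.46, adjusted p = 0.938).

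Pcp4, a calmodulin-binding protein gene, was higher in permissive than control cells by 5.46 (SE 0.93, adjusted p = 0.00168). Atp8a2, a phospholipid flippase gene, was at 0.187 and 0 CPM in control, up to 0.571 in nonpermissive and 6.69 to 54.2 in permissive cells (adjusted p = 0.00217). Fam92b was at 0 in both control libraries and 7.28 to 21.8 CPM in permissive cells (adjusted p = 0.00362), at least 21.0-fold higher against a floor of 3 counts per library. Against nonpermissive cells, Insm2 and Cyp11a1 were also higher in permissive cells, by 5.37 and 5.07 (adjusted p = 0.00295 and 0.00593).

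At 24 h the largest rises after Gadd45g were Elavl4, a neuronal RNA-binding protein gene (2.84), Lypd1 (2.83), Ralgds (2.67), Flrt3 (2.43) and Arhgef3 (2.19), with adjusted p from 3.22e-06 to 0.000109. Ralgds, an exchange factor for Ral GTPases, went from 66.5, 71.4 and 88.6 CPM in DMSO to 456, 503 and 480 in DAPT cells. At 48 h it was at 28.2 and 65.9 CPM in control, 41.7 to 107 in nonpermissive and 325 to 420 in permissive cells (log2 difference from control 2.92, SE 0.56, adjusted p = 0.00354). Arhgef3 did not pass at 48 h (1.3, adjusted p = 0.277). Lypd1 passed in permissive against control cells (4.06, adjusted p = 0.0122) but not without control 1 (0.0988) or control 2 (0.0536).

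Among promoter members, 10 linked genes were higher in permissive than control cells, and Tjap1, Spock2 and Cdc25b led by adjusted p, named after their values were seen. Cdc25b, a phosphatase that activates mitotic kinases, was at 46.0 and 39.7 CPM in control, 40 to 175 in nonpermissive and 621 to 882 in permissive cells (log2 difference 4.12, SE 0.65, adjusted p = 0.00103). Tjap1 was at 18.3 and 25.1 CPM in control, 30.8 to 54.7 in nonpermissive and 242 to 345 in permissive cells (3.77, SE 0.51, adjusted p = 0.000339). The 3 promoter-linked genes that were lower were Cep41, Ntf3 and Zfp467. Ntf3, the neurotrophin that supports cochlear innervation, was at 149 and 129 CPM in control, 102 to 142 in nonpermissive and 25.0 to 36.1 in permissive cells (log2 difference −2.22, adjusted p = 0.00287).

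The lower linked genes had varied functions. The 6 largest falls in permissive against control cells were Podn, a matrix proteoglycan (−6.34), Fndc7 (−4.77), Dmtn, an actin-bundling protein (−4.43), Lacc1 (−4.15), Plekhg1 (−3.82) and Plod2, a collagen lysyl hydroxylase (−3.56), with adjusted p from 0.000217 to 0.00857. Fndc7 was at 67.7 and 92.7 CPM in control, 14.3 to 25.9 in nonpermissive and 1.62 to 3.68 in permissive cells. Lacc1 lost its call without control 1 (adjusted p = 0.107). At 24 h the largest falls were Rhov (−2.76), Cox4i2 (−2.36), Lfng (−2.28), Ppp1r2 (−2.14), Fndc7 (−2.1) and Igfbp5 (−1.96), with adjusted p from 7.11e-06 to 0.000189. Epha7, an ephrin receptor, was lower in permissive than nonpermissive cells by 3.17 (adjusted p = 0.00087).

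Of the 20 Notch effectors and receptors listed, 2 had a linked member, Jag1 and Lfng. Both were lower in permissive cells and at 24 h. Jag1 was at 488 and 371 CPM in control, 218, 307 and 214 in nonpermissive and 45.2, 42.5 and 34.4 in permissive cells, and permissive cells were below control by a log2 difference of −3.4 (SE 0.41, adjusted p = 0.000211). Lfng was at 237 and 486 CPM in control, 98.0, 79.9 and 154 in nonpermissive and 30.3, 53.6 and 61.5 in permissive cells (−2.9, SE 0.49, adjusted p = 0.00163). The 3 groups did not overlap for either gene, though nonpermissive against control did not pass (adjusted p = 0.712 and 0.273). Since Lfng also drives the sort marker, its level is not independent of how the cells were chosen. Over the whole list 10 of 20 genes were lower and 0 higher in permissive against control cells, and 13 of 20 were lower and 1 higher at 24 h.

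The 7 listed Notch ligands and partners of the hair cell lineage, all 7 of them higher in permissive than control cells, had no member, in a list too short for a share of 4.21% of genes to be read against. Of 24 hair cell transcription factors, Eya1 and Six2 had one, and neither passed at 48 h, while 10 of the 21 tested were higher and 1 lower in permissive than control cells. Among the 42 genes listed for the hair bundle, the hair cell synapse and the cytoskeleton, 1 had a member, at the start of Whrn, a stereocilia scaffold (permissive against nonpermissive 2.17, SE 0.63, adjusted p = 0.0355; permissive against control 2.3, adjusted p = 0.0546). Without nonpermissive 1, nonpermissive 2 or permissive 3 the Whrn call was lost (adjusted p from 0.122 to 0.163). Of the bundle list as a whole, 31 of 40 tested genes were higher in permissive than control cells. None of these 31 had a member, beside 564 of all 13411 genes tested (4.21%), so few would carry one in a list of this size.

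Of 20 pan supporting cell genes, Eya1, Jag1, Lfng and Prox1 had a member, of which 2 were lower in permissive than control cells at 48 h and 3 with DAPT at 24 h. The list as a whole leaned the same way, with 11 of 18 tested genes lower and 1 higher in permissive against control cells. At 24 h 12 of its 17 tested genes were lower and 1 higher. Of 20 pillar and Deiters markers, Fgfr3 and Prox1 had one. Fgfr3 was at 433 and 484 CPM in control, 387 to 462 in nonpermissive and 384 to 446 in permissive cells, and passed in no comparison. Of the 19 pillar and Deiters markers tested, 2 were higher and 9 lower in permissive against control cells, and 4 were higher and 10 lower at 24 h. Of 28 Wnt pathway genes, the receptors Fzd2, Fzd4 and Fzd7 had one, and Fzd4 was lower in permissive cells by 1.95 on the log2 scale (adjusted p = 0.00624). Fzd4 was at 459 and 382 CPM in control, 159, 104 and 102 in nonpermissive and 134, 92.4 and 99.9 in permissive cells, so both DAPT groups lay below control. The nonpermissive difference did not pass (log2 fold change −1.79, adjusted p = 0.155). At 24 h Fzd4 was lower (−1.06, adjusted p = 9.16e-05) and Fzd7 higher (0.55, adjusted p = 0.0244). The Fzd7 call was lost without DAPT 1 (adjusted p = 0.0964), DMSO 1 (0.0643) or DMSO 2 (0.0694). Over the whole Wnt list, 0 of 27 tested genes were higher and 11 lower in permissive against control cells. At 24 h 3 of its 28 tested genes were higher and 12 lower.

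Of 31 TGF-beta, BMP and activin genes, Acvr1, Smad4, Smad7, Tgfb2 and Tgfbr1 had a member, and of these Tgfb2 passed at 48 h, as one of 3 lower and 0 higher genes among the 27 of the list tested in permissive against control cells. Tgfbr1, the receptor that signals for TGF-beta, was higher at 24 h by 0.8 (SE 0.15, adjusted p = 0.00494), when 3 of the 27 tested genes of the list were higher and 11 lower. Of 24 matrix genes, Itgb1 and Col1a1 had one, and 14 of the 23 tested were lower in permissive than control cells. Itgb1, an integrin subunit, was lower in permissive cells by 1.68 (adjusted p = 0.0341), a call lost without control 1 (0.171), control 2 (0.0583), permissive 2 (0.106) or permissive 3 (0.0785). Of 30 AP-1 and stress genes, Gadd45g and Btg2 had one, and both were higher at 24 h, Btg2 by 0.45 (adjusted p = 0.0149, from 0.05 to 0.0636 without DAPT 2, DMSO 1 or DMSO 2). The list as a whole leaned the other way, with 4 of 30 tested genes higher and 11 lower at 24 h. In permissive against control cells 1 of 26 was higher and 8 were lower. In the cell cycle, coregulator, Hippo and cholesterol lists, 2, 2, 1 and 1 genes had a member, and none of them passed in a 48 h comparison. At 24 h Ccnd1, a G1 cyclin gene, was higher by 0.76 (adjusted p = 0.0096), and Stk3, a Hippo kinase gene, by 0.62 (adjusted p = 0.00205). Scd2, a fatty acid desaturase gene, was lower at 24 h by a log2 difference of −0.5 (adjusted p = 0.0103, and 0.0546 without DAPT 1). Over these lists at 24 h, 8 of 24 tested cell cycle genes were higher and 4 lower. Of 17 Hippo genes 4 were higher and 5 lower, and of 16 cholesterol genes 3 were higher and 5 lower.

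The lists for other cell types gave 1 linked gene each for mesenchyme (Col1a1) and neurons (Elavl4) and none for inner phalangeal, ridge, endothelial, Schwann, blood or stria cells. The summed level of the 13 mesenchyme markers was 611 to 1460 CPM in control, 1360 to 3400 in nonpermissive and 216 to 542 in permissive cells. That of the 10 endothelial markers was 23.2 to 54.8, 122 to 295 and 57.4 to 160 CPM. The part of these cells in the member peaks was not tested.

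**Figure D5:**
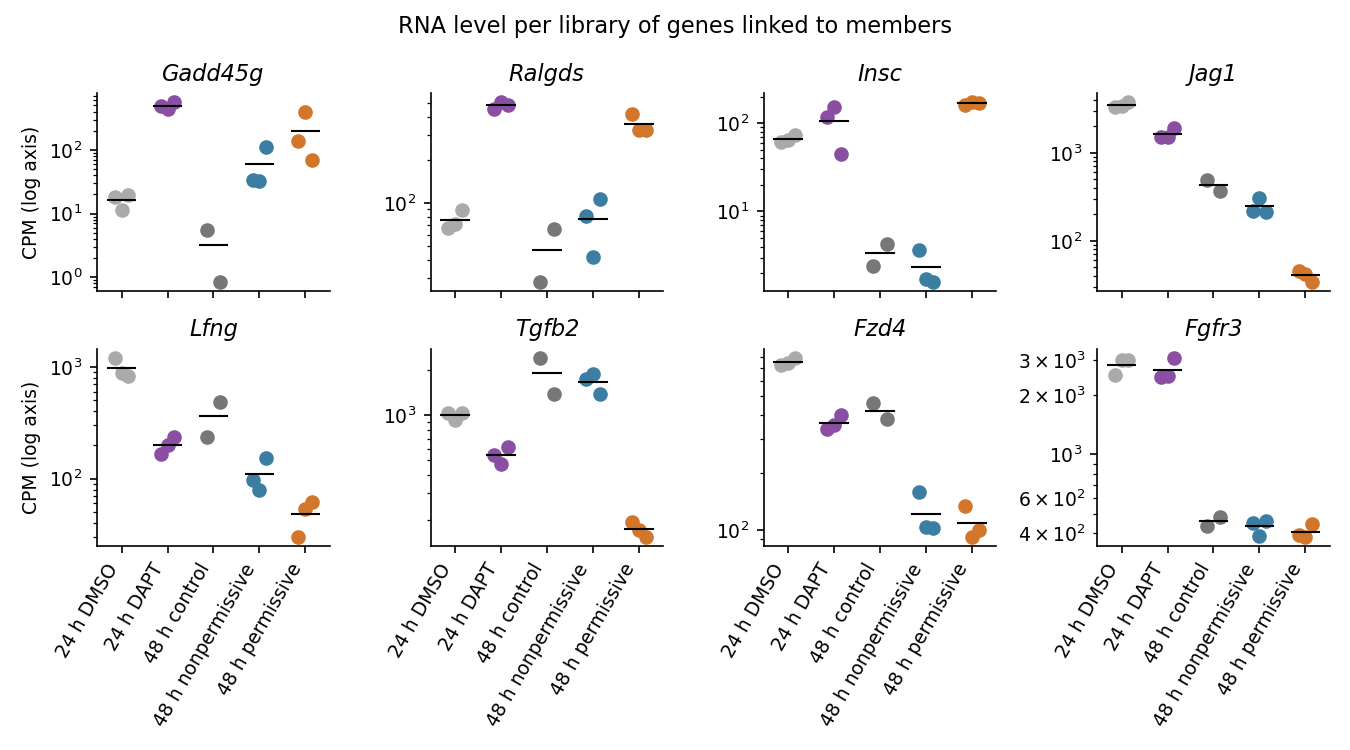
CPM per library (vertical log axis, 1 panel per gene with its own scale) of 8 genes linked to members, with points for libraries and bars for group means, in 24 h DMSO and DAPT cells and 48 h control, nonpermissive and permissive cells. Gadd45g is above control in all DAPT libraries at both times, Insc is high at 48 h in permissive cells alone, Jag1, Lfng and Tgfb2 are lowest in permissive cells, Fzd4 is low in both 48 h DAPT groups, and Fgfr3 is level within each time.

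The members beside genes that were higher and beside genes that were lower in permissive than control cells are set side by side last. The 37 members beside higher genes had an ATAC peak in 94.6% and 78.4% in control and 78.4% and 94.6% in permissive libraries. The 44 beside lower genes had one in 61.4% and 47.7%, then 50.0% and 77.3%. The 512 beside genes that were not called had one in 80.5% and 68.8%, then 69.3% and 88.3%. Median folds in permissive library 1 were 8.27 beside higher, 4.63 beside lower and 5.62 beside uncalled genes. In the same order, the median folds were 4.43, 5.03 and 4.73 in nonpermissive library 1. In nonpermissive library 2 they were 3.92 beside higher, lower and uncalled genes alike. In permissive library 2 they were 4.78 and 3.98, and 3.19 beside uncalled genes. The median gap to a control H3K27ac peak was 4671 bp beside higher, 2290.5 bp beside lower and 3914.5 bp beside uncalled genes. Members share libraries and some share a gene, so these are descriptions with no test.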

How the data were processed

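H3K27ac and ATAC peak lists, 1 per library as deposited, hold for each peak a fold enrichment (the ratio of signal to background) and a −log10 p-value and −log10 q-value, as the authors gave them; columns are read by the narrowPeak layout. RNA tables hold expected counts per gene, deposited by the authors as RSEM output. STAR, RSEM, DESeq2, Bowtie2, MACS2 and UMI-tools and the build mm10 are named in the submitters' processing notes; their roles, versions and settings were not stated. Peaks were used on chromosomes 1 to 19 and X, and several summits of 1 interval were reduced to the strongest. Starts and gene spans came from RefSeq (GRCm38.p6); 4835 of 24548 genes had no listed start, so either end of their span was used (150 linked members).

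Expected counts were rounded, filtered with filterByExpr, scaled by TMM and tested with the quasi-likelihood test of edgeR 4.0.16 (R 4.3.3), all 8 libraries at 48 h in 1 fit and the 24 h libraries in another. A gene was higher or lower where its Benjamini-Hochberg adjusted p over all genes tested was under 0.05, two-sided. CPM is relative to TMM-scaled library size, and a fold change is in log2 units. No pair of RNA libraries was identical, and the fits were tested on simulated data. The text names, per comparison, the 6 largest rises and falls among linked genes (mean log2 CPM of at least 2, curated symbols), up to 4 linked genes per list, and the 12 strongest and 5 widest members (2 of these are described), plus members open in DAPT ATAC libraries alone; other genes named were picked after their values were seen, and 1 item that the rule names is not reported here. Members and lists were chosen with earlier results of these data known. Motifs could be searched in promoter windows alone, since no genome was used here.

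Deviations from group means of same-numbered permissive and nonpermissive RNA samples at 48 h had r = 0.576, 0.152 and 0.127. Different numbers reached 0.187 (nonpermissive 3 with permissive 2), so a pairing was clear for number 1 alone. No label gave a pairing, and the tests above used the group alone, with the replicate number as a block in an alternative. At 24 h r for same-numbered DMSO and DAPT samples was 0.008, −0.047 and −0.074. Alternatives were DESeq2 1.42.0, size factors by relative log expression, no filter, the replicate number as a block, leaving out each library, other linking rules, stricter or equal-length peak lists and other overlap rules.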

Additional observations from a re-analysis of the deposited data

How the results depend on the processing

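The number of members depended on the peak threshold. It was 747 as deposited, 435 with each list at the shortest list's length (310 of the 747 overlapped), 253 where peaks had to cover 50% of the region (46 overlapped), and 676 with peaks within 500 bp joined (543 overlapped). With a −log10 q of at least 5 in every list it was 175, of which only 2 of the 747 were met, and with that limit in DAPT lists alone it was 2. Leaving out 1 library gave 920 to 2906. The share of members open in all 6 ATAC libraries was 27.31% with an ATAC −log10 q of at least 5, 46.85% at equal list length and 42.44% with the summit inside, against 50.47%. The share open in DAPT libraries alone (0.67% to 1.07%) and the promoter share with 2.5 kb (30.7%) moved by less than their counting intervals.

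Among linked genes, DESeq2 called 51 higher in permissive against control cells (9.04%, against 8.33% of all genes), 2 higher and 5 lower in nonpermissive against control, and 64 higher in permissive against nonpermissive (11.35% against 8.76%). With no filter on low counts there were 46 higher and 49 lower for permissive against control (7.6% and 8.1%, against 4.74% and 6.11% of all genes). Nonpermissive against control then gave 2 higher and 8 lower (0.33% and 1.32%, against 0.6% and 0.8% of all genes). Permissive against nonpermissive gave 65 higher (10.74% against 5.52%). Over all genes, nonpermissive against control gave 9 higher and 17 lower by edgeR, 77 and 77 by DESeq2, and 129 and 173 with no filter. A link of at most 20 kb gave 24 lower (5.66%), 0 lower and 21 lower (4.95%) in the 3 comparisons at 48 h, in that order, with fewer genes linked. Over all genes 7.28%, 0.127% and 6.35% were lower. The gene body holding the member gave 19 higher (3.73%) and 46 lower (9.04%) for permissive against control, beside 5.72% and 7.28% of all genes. This link also gave 0 lower for nonpermissive against control. The nearest protein-coding start, added after seeing the data, moved no count by over 1.5 times. Leaving out 1 library gave 13 to 34 higher and 24 to 46 lower for permissive against control, 0 to 1 lower for nonpermissive against control, and 61 to 116 lower at 24 h. With the replicate number as a block, permissive against control gave 43 higher and 47 lower (7.62% and 8.33%, against 6.67% and 8.67% of all genes). Nonpermissive against control gave 0 and 1 (0% and 0.18%, against 0.09% and 0.18%). Permissive against nonpermissive gave 58 and 47 (10.28% and 8.33%, against 7.93% and 8.12%). At 24 h, where the numbers do not pair the samples, it gave 87 and 84 (15.16% and 14.63%, against 9.3% and 12.63%). The block moved none of these counts by over 1.5 times. Mapk8ip1, Rnf8 and Zfp871 were among the genes that lost their 24 h call under the block. No named gene reversed under any setting that gave a value, and across settings 1279 single-gene values kept and 93 lost their call. A narrower motif window was not run, since no genome was used. The cause of these moves was not tested. With 2 libraries per group in each peak assay, differences between groups could not be tested, and list depth is unknown.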
